A study of Mus musculus with 2 samples.

Results

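Saa3-positive microglia with low homeostatic transcripts were 196 of the 8662 barcodes in the CD45-positive library, a share of 2.26% (95% Clopper-Pearson interval 1.96 to 2.60%). The cells were selected on measured transcripts, by thresholds on total, mitochondrial, C1q, homeostatic, Saa3, Tnf and S100 UMIs. A chosen barcode had at least 1000 UMIs (molecular tags, counted once per captured transcript) and at most 20% mitochondrial UMIs. The complement genes C1qa, C1qb and C1qc together reached at least 50 UMIs per 10000, and the homeostatic genes P2ry12, P2ry13, Tmem119, Siglech, Gpr34 and Olfml3 together stayed below 15 UMIs per 10000. It also had at least 3 Saa3 UMIs, at most 2 Tnf UMIs and fewer than 10 UMIs of S100a8 and S100a9 together. The thresholds were set on these same transcripts, so every difference given here describes how the chosen cells look and tests nothing.

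The cells came from brains of C57BL mice 8 to 13 weeks old, at the 24 h point of a model of neuromyelitis optica spectrum disorder, an autoimmune disease in which antibodies against the astrocyte water channel aquaporin-4 damage the tissue. The genotype, the sex, the number of mice and the agents given were not stated in the labels. Brain cells were divided by CD45, the surface phosphatase of leukocytes, into a CD45-positive and a CD45-negative subset, each sequenced as 1 library with 76182401 and 92691820 UMIs. No untreated library was analysed here, and with 1 library a group there is no replicate, no test and no p-value. Intervals cover counting error only.

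Microglia are the resident macrophages of the brain and, at rest, carry a characteristic set of receptors such as the purinergic receptor P2ry12, which many of them lose when activated. Saa3 encodes serum amyloid A3, an acute-phase apolipoprotein that mouse macrophages and epithelia make on inflammatory stimulation, in contrast to Saa1 and Saa2, whose main source is the liver. Acute-phase genes are classical targets of the transcription factors C/EBP beta and delta, NF-kB and STAT3.

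The bases upstream of 3 genes are shown because Saa3 defined the cells and because Lcn2 and Marco led the genes that were higher than in other low-homeostatic cells. Sequences are from RefSeq, build GRCm38.p6, all on the minus strand, at chr7:46715677-46715926 for Saa3, chr2:32387740-32387989 for Lcn2 and chr1:120505025-120505274 for Marco. Capitals mark matches, on either strand, to a C/EBP-like motif TTNNGNAA or an NF-kB-like motif GGGNNNNNCC.
Saa3: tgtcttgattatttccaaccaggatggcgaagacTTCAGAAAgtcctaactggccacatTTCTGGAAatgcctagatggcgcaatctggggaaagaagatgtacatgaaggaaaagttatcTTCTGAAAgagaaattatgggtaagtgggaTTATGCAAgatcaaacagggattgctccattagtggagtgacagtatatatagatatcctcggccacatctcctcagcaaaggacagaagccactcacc
Lcn2: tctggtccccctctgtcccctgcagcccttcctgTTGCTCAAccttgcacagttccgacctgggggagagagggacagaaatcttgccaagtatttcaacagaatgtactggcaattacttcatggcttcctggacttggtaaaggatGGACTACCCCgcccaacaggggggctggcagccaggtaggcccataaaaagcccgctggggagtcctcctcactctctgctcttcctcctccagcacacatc
Marco: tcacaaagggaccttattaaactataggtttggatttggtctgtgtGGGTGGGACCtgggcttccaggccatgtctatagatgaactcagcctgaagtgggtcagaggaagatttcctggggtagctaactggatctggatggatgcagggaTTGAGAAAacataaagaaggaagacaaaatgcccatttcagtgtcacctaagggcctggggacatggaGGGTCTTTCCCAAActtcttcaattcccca
The Saa3 window held 4 C/EBP-like and 0 NF-kB-like matches. The Lcn2 window held 1 match of each kind and the Marco window 3 of each, of which some overlap. The same window of Ccl12, not shown, held 0 of either. Of 32851 windows of this length upstream of RefSeq genes, 36.8% held the C/EBP-like motif, 0.591% held it at least 4 times, and 45.8% held the NF-kB-like motif. A match describes letters and not a bound site.

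The gates removed cells in steps. Of the CD45-positive barcodes, 7768 met the UMI and mitochondrial limits, 4158 of them had the C1q level, and 1042 of these had the low homeostatic sum. At least 3 Saa3 UMIs were found in 218, the Tnf limit left 206, and the S100a8 and S100a9 limit left 196. The 196 cells that passed all gates (Saa3-positive cells below) were thus 4.71% (4.09 to 5.40%) of C1q-positive cells. They were compared with the other C1q-positive cells under the same S100a8 and S100a9 limit. These were 764 low-homeostatic cells with fewer than 3 Saa3 UMIs (Saa3-low cells below), 321 cells with at least 3 Tnf UMIs (Tnf-high) and 2639 homeostatic microglia at or above 15 per 10000. The Saa3-low and homeostatic cells also had at most 2 Tnf UMIs. The Tnf-high cells were taken at any homeostatic and Saa3 level. Outgroups were 132 Arg1 or Chil3 cells with low C1q and 1587 T cells with C1q below 10 per 10000.

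The thresholds cut through a continuum. Just inside the homeostatic limit, 37 cells at 12 to below 15 per 10000 had a median of 13.4 per 10000 and 30 Saa3 UMIs. Just outside it, 26 cells at 15 to below 18 per 10000 had 16.3 per 10000 and 26 Saa3 UMIs. At the Saa3 limit, 11 cells had exactly 3 UMIs and 24 otherwise eligible cells had 2. At the C1q limit, 4 cells lay at 50 to below 60 per 10000 and 3 at 40 to below 50, and at the Tnf limit 5 cells had 2 UMIs and 9 had 3 or more.

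**Figure D1:**
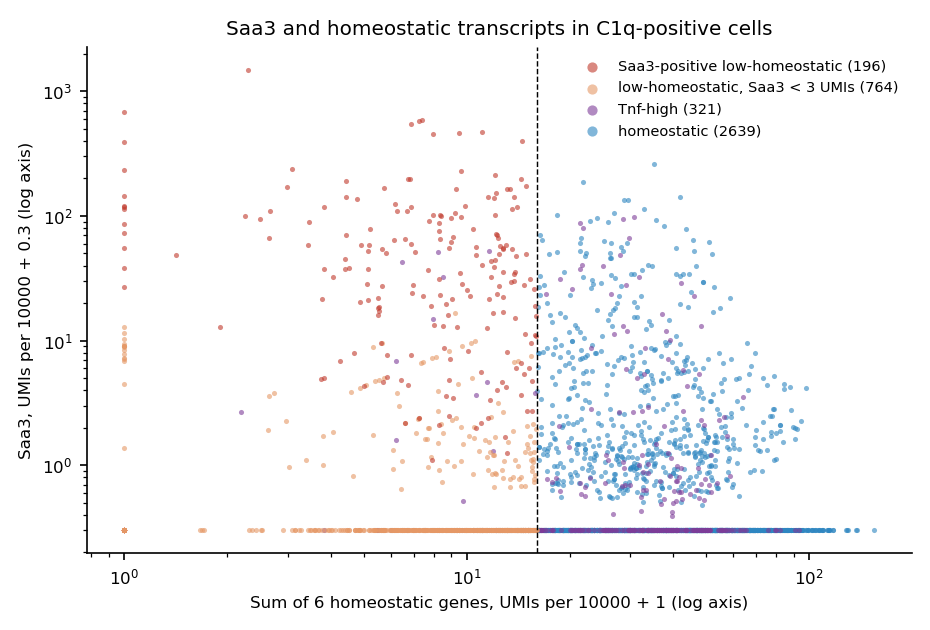
Each point is 1 C1q-positive cell of the CD45-positive library; the x axis is the summed UMIs per 10000 of the 6 homeostatic genes plus 1 and the y axis Saa3 UMIs per 10000 plus 0.3, both on log axes, with the dashed line at the threshold of 15 per 10000. The 196 Saa3-positive cells spread from 0 to 14.9 per 10000 in the homeostatic sum and from 0.800 to 1481 per 10000 in Saa3, and homeostatic cells with Saa3 lie just right of the line.

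Saa3 varied by orders of magnitude among the chosen cells. They held 3 UMIs at the lowest, 31 at the median and 2287 at the highest, and the 5 richest cells held 27.0% of all 15451 Saa3 UMIs. Per 10000 UMIs the lowest was 0.800, the median 37.7 and the highest 1481. Summed over cells, Saa3 made up 6426 CPM (UMIs of a gene scaled to a common total in each group) in the Saa3-positive cells, 23.1 CPM in Saa3-low cells, 516 CPM in Tnf-high microglia and 285 CPM in homeostatic microglia. Saa3 was thus not limited to low-homeostatic cells. At least 3 UMIs were also found in 18.4% (14.3 to 23.1%) of Tnf-high and 7.09% (6.14 to 8.13%) of homeostatic microglia. In T cells, which should lack the gene and show the free RNA of the droplets, 10.6% had a Saa3 UMI but 0.315% (0.102 to 0.734%) had 3 or more. These T cells were limited to C1q below 10 per 10000, which selects against free microglial RNA. Their shares can therefore understate the background. The median depth was 10108 UMIs in the Saa3-positive cells and 6178 in T cells. Saa1 had 17 UMIs in 1.02% of the cells, and Saa2 had 0. Saa1 and Saa2 are near-identical copies, and how the counting treated reads that fit both was not tested. Low counts of either therefore cannot be read as absence.

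The cells carried microglial identity genes at reduced levels. Cx3cr1, the fractalkine receptor, was at 1647 CPM in the Saa3-positive cells, against 3266 CPM in homeostatic microglia and 326 CPM in Arg1 or Chil3 cells. Sall1, a transcription factor that in mouse brain macrophages is largely confined to microglia, was at 56.6, 174 and 13.2 CPM in the same order. Both levels lay between those of homeostatic microglia and of Arg1 or Chil3 cells. The sum of 10 microglia markers outside the rule was 18534 CPM in Saa3-positive cells, 20518 in Saa3-low cells, 35838 in homeostatic microglia, 6525 in Arg1 or Chil3 cells and 1407 in T cells.

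Of the genes proposed as markers, C1qa and Saa3 were part of the rule, Ccl12 and Cd72 were above homeostatic microglia, and Xlr was not. Ccl12, a CCR2-binding chemokine of mice, was present in all of the Saa3-positive cells, with 0.647, 54.1 and 524 UMIs per 10000 at the lowest, the median and the highest cell. Homeostatic microglia had 0, 18.9 and 587 per 10000, so the ranges overlapped. Its level was 7458 CPM in Saa3-positive cells, 6237 in Saa3-low cells, 4406 in Tnf-high and 3943 in homeostatic microglia. Cd72, an inhibitory lectin-like receptor, followed the same order at 252, 229, 157 and 132 CPM. Xlr, an X-linked gene of the lymphocyte-regulated family, went against the label. It was at 69.0 CPM (58.9 to 80.4) in Saa3-positive and 70.4 CPM (67.4 to 73.5) in homeostatic microglia, and at 72.3 and 66.3 CPM in Saa3-low and Tnf-high cells. Under the TMM scaling described below its log2 ratio over homeostatic microglia was 0.27 instead of -0.03. C1qa itself was at 5586 CPM, below 8485 CPM in homeostatic microglia.

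Markers of other cells were also found, and their part in the results was not tested. The summed level of 10 monocyte markers was 842 CPM in Saa3-positive cells, 941 in Saa3-low cells, 452 in homeostatic microglia and 10093 in Arg1 or Chil3 cells. It was concentrated: 25 of the 196 cells (12.8%) had 10 or more such UMIs and held 89.3% of them, together with 90.7% of the UMIs of the MHC class II genes H2-Aa, H2-Ab1 and H2-Eb1. The 5 richest cells held 98% of the Arg1 and 77.6% of the Ly6c2 UMIs. Markers of border macrophages, the macrophages of meninges and perivascular spaces, summed to 441 CPM, against 423 in Saa3-low cells and 275 in homeostatic microglia, and their defining gene Cd163 was at 7.49, 12.2 and 1.70 CPM in that order. Scrublet, which scores simulated doublets, called 8 of the 196 cells (4.08%), and 11 (5.61%) had 3 or more UMIs of Cd3d, Cd3e and Cd3g. T-cell markers summed to 168 CPM in Saa3-positive cells, 244 in Saa3-low cells and 117 in homeostatic microglia. For the comparison with homeostatic microglia, values without all cells carrying 3 or more UMIs of any of these lists are given where they differ most, when 99 Saa3-positive and 1510 homeostatic cells remained. The removal used the listed genes themselves, such as Pf4 and F13a1, so their values after it cannot show where their transcripts came from.

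Many of the cells held little nuclear RNA. Malat1, an abundant non-coding RNA retained in the nucleus, was below 10 UMIs per 10000 in 98 of the 196 Saa3-positive cells (50%, 42.8 to 57.2%). The same was found in 36.0% (32.6 to 39.5%) of Saa3-low cells, 3.74% (1.95 to 6.44%) of Tnf-high and 10.5% (9.39 to 11.8%) of homeostatic microglia, 0.126% of T cells and 0 of 132 Arg1 or Chil3 cells, where a count of 0 leaves room for 2.27%. In all cells with C1q below 50 per 10000 the share was 0.582%. Of the other Saa3-positive cells, 86 had Malat1 at 50 per 10000 or above (Malat1-rich below) and 12 lay between 10 and 50 per 10000. Xist, the nuclear RNA of the inactive X chromosome, went the same way, with a UMI in 7.14% of the Malat1-poor and 95.3% of the Malat1-rich Saa3-positive cells. The median depth of the Malat1-poor cells was 9247 UMIs, against 12660.5 in the Malat1-rich ones, and the mitochondrial medians were 1.30% and 1.42%.

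**Figure D2:**
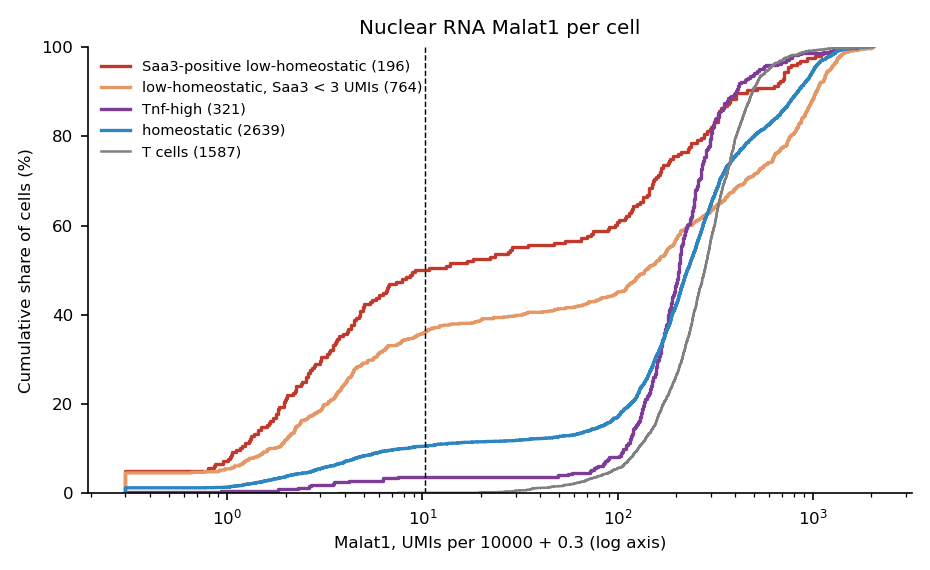
Cumulative share of cells (y axis, %) by Malat1 UMIs per 10000 plus 0.3 (x axis, log) for Saa3-positive, Saa3-low, Tnf-high and homeostatic C1q-positive cells and T cells; the dashed line marks 10 per 10000. The curve of the Saa3-positive cells reaches 50% at the line and climbs little up to 50 per 10000, while that of homeostatic microglia reaches 10.5%.

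The share of cells with Saa3 was higher among Malat1-poor cells at either homeostatic level. Among low-homeostatic cells, 26.3% (21.9 to 31.1%) of the Malat1-poor and 16.1% (13.1 to 19.5%) of the Malat1-rich had at least 3 Saa3 UMIs. Among homeostatic microglia the shares were 11.2% (7.70 to 15.5%) and 6.6% (5.62 to 7.69%). A limit of 3 UMIs depends on depth. The median depth was 8834 UMIs in Malat1-poor and 4573 in Malat1-rich Saa3-low cells, 9247 and 12660.5 in Saa3-positive cells, and 8748.5 and 8983 in homeostatic microglia, and its part in these shares was not tested. The share of UMIs from ribosomal protein genes was 27.5% in Malat1-poor and 20.6% in Malat1-rich Saa3-positive cells, and 23.7% in all Saa3-positive cells against 17.7% in homeostatic microglia.

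Compared with homeostatic microglia, the Saa3-positive cells had more transcripts of most chemokines, of ferritin and of the acute-phase genes Lcn2 and Cp, and fewer transcripts of the resting microglial program. In the groups together, 10265 genes had at least 100 UMIs. Of these, 114 were at least 2-fold higher and 1593 at least 2-fold lower, that is 1.11% and 15.5% of those measured. The median log2 ratio over all genes was -0.38, so ratios should be read against that value. With a trimmed-mean (TMM) scaling it was -0.08, and 232 genes were then higher and 826 lower.

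Some acute-phase genes besides Saa3 were higher. Without Saa3, which the rule used, 6 of 19 listed genes were measured and 3 of them, Lcn2, Hp and Cp, were at least 2-fold higher, beside 1.11% of all genes, with a median of 1.37. Lcn2, which encodes lipocalin-2, a protein that binds bacterial iron carriers, was found in 33.2% of Saa3-positive and 9.36% of homeostatic cells. Its level was 181 CPM (165 to 199) against 34.0 CPM (31.9 to 36.2), a log2 ratio of 2.42, and the 5 richest cells held 52.1% of it. Cp, encoding the copper ferroxidase ceruloplasmin, was at 89.4 against 24.8 CPM and was spread over 39.8% of the cells. Hp, encoding haptoglobin, was at 37.8 against 8.07 CPM, but 5 cells held 96.7% of its UMIs. Without the cells carrying markers of other lineages, Lcn2 and Cp had log2 ratios of 2.59 and 2.26.

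Of the 16 chemokines measured, 14 had a log2 ratio above 0. Among them 9 were at least 2-fold higher, and 1 of the 16 was at least 2-fold lower, beside 1.11% and 15.5% of all genes. The median was 1.19 (1.26 without cells carrying other markers). The summed level of the chemokine list was 12110 CPM in Saa3-positive and 5685 CPM in homeostatic cells. Ccl5, a T-cell and monocyte attractant, was at 1513 against 376 CPM. Ccl2 and Ccl7, ligands of the monocyte receptor CCR2, were at 1032 and 308 CPM in Saa3-positive cells and 351 and 75.1 CPM in homeostatic microglia. Pf4 was at 71.1 against 16.7 CPM, and it is also a border macrophage marker. Its log2 ratio of 2.09 was 0.97 without cells carrying other markers, which were removed on Pf4 among other genes. Cxcl10, an interferon-inducible ligand of CXCR3, ran the other way at 46.6 against 86.5 CPM. Of 23 measured cytokine receptors, 5 were at least 2-fold lower, beside 15.5% of all genes. All 23 had a log2 ratio below 0, with a median of -0.58 (-0.28 under the TMM scaling and -1.16 without cells carrying other markers).

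Marco, a scavenger receptor for bacteria and particles, was found in 34.7% of Saa3-positive and 10.8% of homeostatic cells and was at 279 CPM (258 to 301) against 59.6 CPM (56.9 to 62.5). The scavenger receptor Msr1 was at 668 against 235 CPM. The list of phagocytic and scavenger receptors had 5 of 17 genes at least 2-fold higher and 5 lower, beside 1.11% and 15.5% of all genes. Its median was -0.54, so the list as a whole was not higher. Spp1, encoding the matrix protein osteopontin, was at 647 against 122 CPM, but 5 cells held 69.7% of it and the log2 ratio of 2.41 became 1.04 without cells carrying other markers. F13a1, the coagulation factor XIII A chain and a border macrophage marker, was at 74.4 against 16.0 CPM. Its log2 ratio of 2.22 turned to -0.23 without cells carrying other markers, but F13a1 was among the genes used to remove those cells. Marco had 3.58 under that setting. Border macrophage markers had 5 of 7 genes at least 2-fold higher, beside 1.11% of all genes, with a median of 1.58 (0.87 without those cells). Monocyte markers had 4 of 10, with a median of 0.68 (0.01 without those cells). Both lists were used to remove those cells, so the values without them are set in part by the removal.

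The remaining genes with the highest ratios were Sdc4, the proteoglycan syndecan-4, at 213 against 52.0 CPM, and Ch25h, which makes 25-hydroxycholesterol, at 94.0 against 23.4 CPM. Lilrb4a, an inhibitory immunoglobulin-like receptor, was at 271 against 84.9 CPM and was present in 70.4% of the Saa3-positive cells. Aoah, the enzyme that deacylates lipopolysaccharide, Adam8, a membrane metalloprotease, Rab7b, a late endosomal GTPase, and Apoc2, a cofactor of lipoprotein lipase, had log2 ratios of 1.88, 1.89, 2.02 and 1.89. Without cells carrying other markers, Aoah was at 2.83 and Rab7b at 1.35. For Apoc2, 5 cells held 82.4% of the UMIs. Of 18 lipid and cholesterol genes, 6 were at least 2-fold higher and 1 lower, beside 1.11% and 15.5% of all genes, with a median of 0.16.

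Transcripts for iron storage and oxidant defence were higher. Fth1, the ferritin heavy chain, was at 17041 CPM in Saa3-positive, 12126 in Saa3-low, 9129 in Tnf-high and 7682 in homeostatic cells, present in 100% of the Saa3-positive cells. Ftl1, the ferritin light chain, was at 3892 against 2195 CPM in homeostatic microglia, and mitochondrial superoxide dismutase Sod2 at 259.5 against 111 CPM. Slc40a1, the iron exporter ferroportin, was low at 4.99 against 34.0 CPM, a log2 ratio of -2.77 that was -4.85 without cells carrying other markers. Of 22 oxidative stress, metal and iron genes, 4 were at least 2-fold higher and 1 lower, beside 1.11% and 15.5% of all genes, with a median of 0.59, and 18 lay above 0.

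Interferon-stimulated and antigen-presentation genes had smaller ratios. Of 29 type I interferon-stimulated genes, 2 were at least 2-fold higher and none lower, beside 1.11% and 15.5% of all genes. In this list 25 lay above 0, with a median of 0.51. Ifitm3, a membrane protein that restricts virus entry, was at 1183 against 547 CPM. MHC class II genes had a median of 0.89 and 4 of 10 at least 2-fold higher, but their summed level was 4602 CPM in Saa3-positive and 5429.5 CPM in homeostatic cells. The median was -0.73 without cells carrying other markers. The Toll-like receptor and NF-kB list (34 genes, 4 higher, 4 lower) had a median of -0.28, near that of all genes. The immediate early list, which responds to cell dissociation, had 20 genes, none past 2-fold and a median of -0.21 (-0.81 without cells carrying other markers). Both of these medians were at or above 0 under the TMM scaling, at 0.01 and 0.09.

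**Figure D3:**
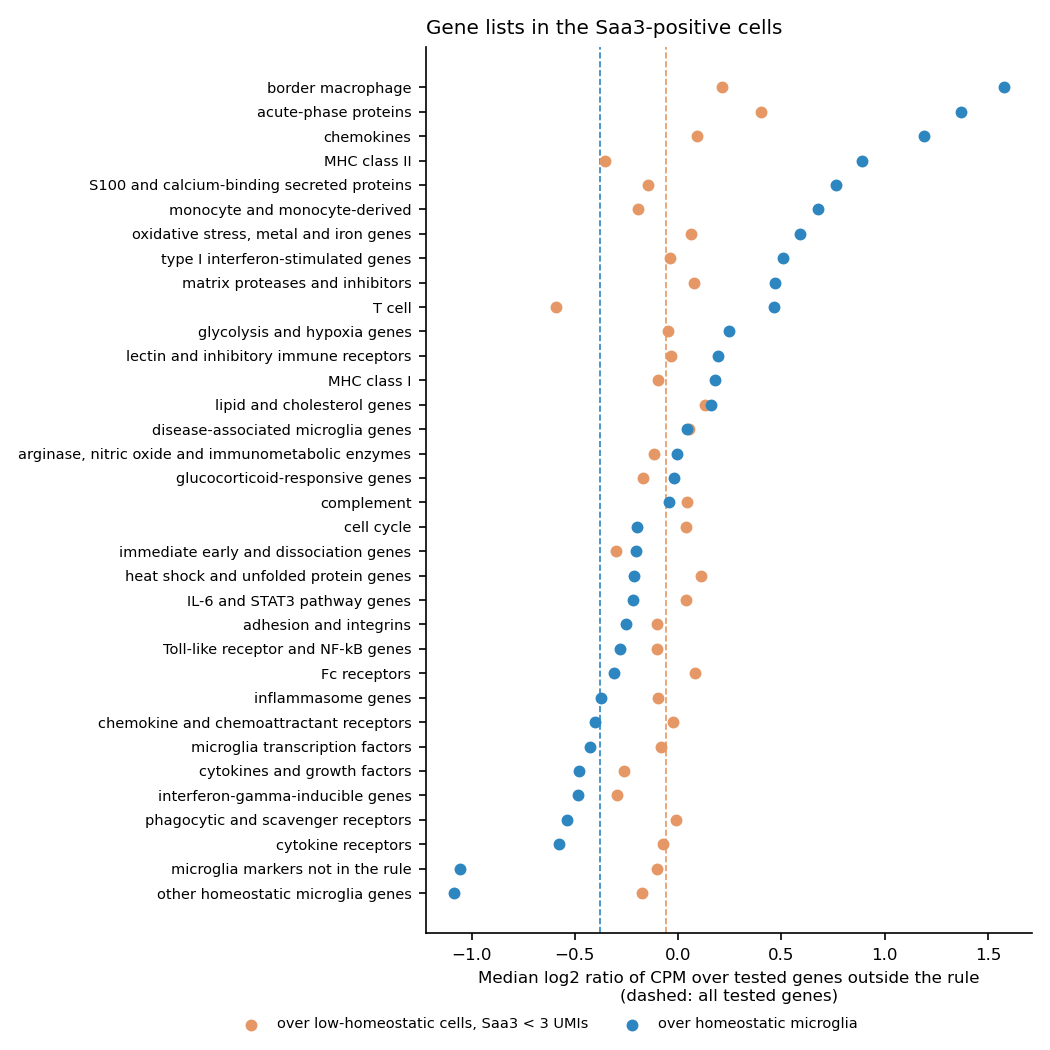
Median log2 ratio of CPM (x axis) for each of 34 gene lists with at least 5 measured genes, for Saa3-positive cells over homeostatic microglia and over Saa3-low cells, with the medians of all genes dashed at -0.38 and -0.06. Genes of the rule are left out. Over homeostatic microglia, border macrophage markers at 1.58 and acute-phase genes at 1.37 lie farthest right. Microglia markers outside the rule at -1.05 and other homeostatic genes at -1.09 lie farthest left.

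The resting program was lower beyond the 6 genes of the rule. Of 10 other microglia markers, 6 were at least 2-fold lower, beside 15.5% of all genes, with a median of -1.05. Of 19 further homeostatic genes, 10 were at least 2-fold lower, with a median of -1.09. Selplg, the P-selectin ligand of leukocytes, was at 210.0 against 1007 CPM and was still found in 74.0% of the Saa3-positive and 94.4% of the homeostatic cells. Slc2a5, a fructose transporter typical of microglia, was at 10.4 against 89.8 CPM, and Ltc4s, which makes leukotriene C4, at 65.7 against 298 CPM. Sparc, a matrix-binding glycoprotein, Csf1r, the receptor for the survival factor CSF1, and Trem2, a lipid-sensing receptor, were at 342, 796 and 525 CPM in Saa3-positive cells. Homeostatic microglia had 1258 CPM of Sparc, 1835 of Csf1r and 1092 of Trem2.

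Agmo, which cleaves ether lipids, had 0 UMIs in the Saa3-positive cells and 12.8 CPM in homeostatic microglia, and was at least 10.3-fold lower against a floor of 3 UMIs over the group. The transcription factor gene Zbtb20 and Csmd3, Fchsd2, Nav2, Rtn4rl1, Garnl3, Tmem44 and the non-coding Gm34589, Gm31243 and A830008E24Rik completed the list of lowest ratios. Csmd3 was at 8.73 against 68.3 CPM and Fchsd2, an endocytic adaptor, at 29.9 against 151 CPM. The log2 ratio of Fchsd2 was -2.33, and -3.63 without cells carrying other markers. The log2 ratio of Tmem44 rested on 1 UMI in the Saa3-positive cells and spanned -10.56 to -2.77.

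The Saa3-positive cells differed little from Saa3-low cells that shared their low homeostatic sum. Of 7355 genes, 9 were at least 2-fold higher (0.122%) and 49 lower (0.666%), with a median over all genes of -0.06. Of the acute-phase list without Saa3, on which the groups were divided, 2 of 6 measured genes were at least 2-fold higher, with a median of 0.40, and for chemokines the median was 0.09, with 0 of 14 higher and 1 lower. Microglia markers outside the rule had a median of -0.10. Both groups were chosen for the same low homeostatic sum, so the small ratio of homeostatic genes follows from the choice of cells.

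The few genes that stood apart were led by Lcn2. Its level was 181 CPM in Saa3-positive and 52.4 CPM in Saa3-low cells (47.1 to 58.2), found in 33.2% and 14.0% of cells. Marco was at 279 against 134 CPM, Ccl5 at 1513 against 923 CPM, and Sod2 at 259.5 against 162 CPM. Clec4a1, a C-type lectin receptor, Rsad2, the antiviral enzyme viperin, and Igfbp4, a binding protein of insulin-like growth factors, had log2 ratios of 1.03, 1.12 and 1.15. Rsad2 turned to -0.13 with Saa3 at 5 or more per 10000 and Igfbp4 to -0.50 after thinning to 1000 UMIs. Spp1, the protease gene Adamts1 and the stress gene Gadd45g had 0.70, 0.84 and 0.79, and the 5 richest cells held 69.7%, 69.7% and 60.4% of their UMIs. Without cells carrying other markers, Spp1, Adamts1 and Gadd45g were at -0.58, -0.23 and -0.24. Fth1 was at 17041 against 12126 CPM.

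Il1b led the genes with lower ratios together with Il7r. Il1b, encoding the cytokine interleukin-1 beta, was at 76.1 CPM (65.5 to 88.0) in Saa3-positive and 166 CPM (156 to 176) in Saa3-low cells. Its log2 ratio of -1.12 turned to 0.61 among Malat1-poor cells, and that of Runx3 below to 1.36. Il7r, the interleukin-7 receptor of lymphocytes, Runx3, a lymphoid transcription factor, and Ms4a4b, a T-cell membrane protein, had log2 ratios of -1.68, -1.49 and -0.94, beside T-cell marker sums of 168 and 244 CPM. None of 7 T-cell markers was at least 2-fold lower, but all 7 had a log2 ratio below 0. Their median was -0.59, against -0.06 for all genes. The inhibitory receptor Cd300a was at 13.3 against 33.4 CPM and Cxcl10 at 46.6 against 96.6 CPM. With a homeostatic limit of 20 per 10000 the log2 ratio of Cxcl10 was 0.16. Zbtb20, Fbxl20 and Phactr4 had log2 ratios of -1.34, -1.49 and -1.44, on 14 to 21 UMIs each in the Saa3-positive cells.

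Against Tnf-high microglia, immediate early and NF-kB genes were lower. Of 8076 genes, 43 were at least 2-fold higher (0.532%) and 835 lower (10.3%), with a median of -0.29. Under the TMM scaling 110 were higher and 391 lower. Of 20 immediate early genes, 17 were at least 2-fold lower, with a median of -2.03 and sums of 2525 CPM in Saa3-positive and 10969 CPM in Tnf-high cells. Of 33 Toll-like receptor and NF-kB genes, 14 were at least 2-fold lower. Of 6 measured acute-phase genes other than Saa3, 3 were at least 2-fold higher and 1 lower, with a median of 0.63. Tnf itself was limited by the rule. The median homeostatic sum was 7.64 per 10000 in Saa3-positive and 31.9 in Tnf-high cells, so these ratios do not separate Tnf from homeostatic level. Median depth was 10108 UMIs in Saa3-positive and 20705 in Tnf-high cells, and after thinning every cell to 1000 UMIs 18 genes were higher and 84 lower. Among Malat1-rich cells of both groups, 98 genes were higher and 360 lower. The immediate early sum was 845 CPM in Malat1-poor and 3852 CPM in Malat1-rich Saa3-positive cells, and the part of this was not tested.

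Lower in the Saa3-positive cells were regulators and targets of acute signalling. Egr1, an immediate early transcription factor, was at 29.1 against 493 CPM. Il1a was at 24.1 against 202 CPM and Cxcl10 at 46.6 against 389 CPM. The NF-kB inhibitor genes Nfkbia and Tnfaip3 were at 267 and 19.1 CPM in Saa3-positive and 1294 and 132 CPM in Tnf-high cells. Gadd45b, Ier3, Klf2 and Ccrl2, a stress sensor, an early response gene, a transcription factor and an atypical chemokine receptor, had log2 ratios of -2.74, -2.61, -2.64 and -2.87. Chemokines were split. Ccl4, an attractant of monocytes and T cells, was at 576 against 2121 CPM, whereas Ccl5 was at 1513 against 464 CPM.

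Higher in the Saa3-positive cells were again Lcn2, at 181 against 48.1 CPM, and Marco, at 279 against 77.2 CPM. Cp and Aoah had log2 ratios of 1.44 and 1.56. Pf4, F13a1, Spp1 and the interferon-induced Ifitm1 had 1.87, 1.70, 1.47 and 1.49, and 5 cells held 55.6%, 49.2%, 69.7% and 83.3% of their UMIs. Trbc1, a T-cell receptor constant chain, was at 41.2 against 11.5 CPM, beside T-cell marker sums of 168 and 79.8 CPM. Transcripts of the C/EBP factors and STAT3 were not higher in the Saa3-positive cells than in Tnf-high cells. Cebpb was at 626, 896 and 545 CPM, Cebpd at 137, 176 and 163 CPM and Stat3 at 98.6, 131 and 116 CPM in Saa3-positive, Tnf-high and homeostatic cells. Malat1-poor cells were 50%, 3.74% and 10.5% of these groups, and the part of this in the levels was not tested.

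**Figure D4:**
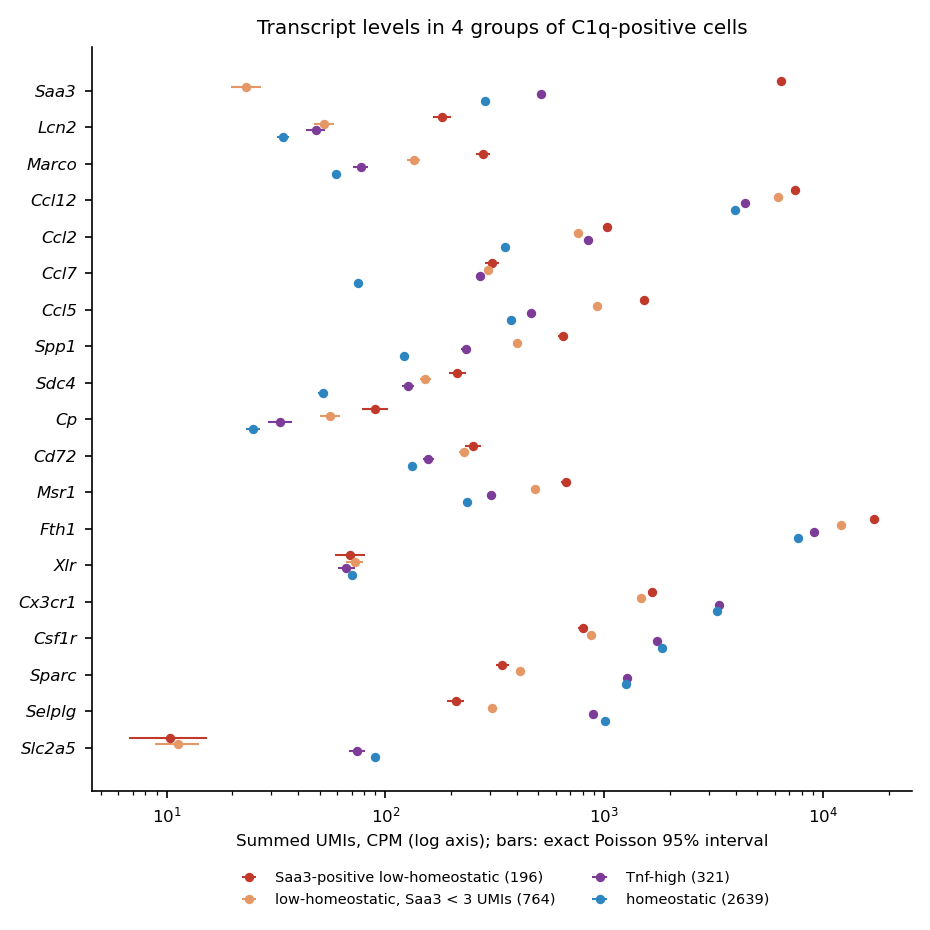
Summed level (x axis, CPM, log axis) of 19 genes in Saa3-positive, Saa3-low, Tnf-high and homeostatic cells; bars are exact 95% Poisson intervals, which cover counting error only and not variation between mice. Lcn2, Marco and Ccl5 are highest in the Saa3-positive cells, Cx3cr1 to Slc2a5 are low in both low-homeostatic groups, and Xlr is level across all 4 groups.

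Among the Saa3-positive cells, those richest in Saa3 also had more Marco and Lcn2 and fewer MHC class II transcripts. The 65 cells with the most Saa3 per 10000 had a median of 119 per 10000 and a homeostatic median of 6.78 per 10000, against 6.24 and 7.92 per 10000 in the 65 cells with the least. The median depth was 8443 and 11896 UMIs. Of 2397 genes, 8 were at least 2-fold higher (0.334%) and 42 lower (1.75%). Marco was at 503 against 199.9 CPM, Lcn2 at 339 against 139 CPM, Ch25h at 163 against 58.6 CPM and Ccl12 at 10048 against 6118 CPM. Marco and Lcn2 were found in equal shares of both sets, 36.9% and 32.3%. Ptgds, prostaglandin D synthase, ranked highest at 432 against 6.51 CPM, but 5 cells held 95.8% of its UMIs.

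MHC class II and monocyte genes lay at the low-Saa3 end. H2-Aa was at 18.6 CPM in the most and 361 CPM in the least Saa3-rich cells, and Cd74, the class II invariant chain, at 130.0 against 1001 CPM. Ly6c2, a monocyte surface antigen, was at 17.0 against 191 CPM. Of 7 MHC class II genes, 5 were at least 2-fold lower, beside 1.75% of all genes, with a median of -2.95. The monocyte list summed to 204 against 1353 CPM. The 25 cells with 10 or more monocyte UMIs included 17 (68.0%) with Saa3 below the group's median, and 3 were Malat1-poor. Malat1-poor cells were 32 and 30 of the 65.

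The Malat1-poor and Malat1-rich Saa3-positive cells differed in nuclear RNAs and immediate early genes. Of 3109 genes, 9 were at least 2-fold higher in the Malat1-poor cells (0.289%) and 445 lower (14.3%). Of 15 immediate early genes, 14 were at least 2-fold lower, with a median of -2.56. Fos was at 10.8 CPM in Malat1-poor and 386 CPM in Malat1-rich cells, and the nuclear RNA Neat1 at 4.93 against 235 CPM. Kcnq1ot1, an imprinted nuclear RNA, had 0 UMIs in the Malat1-poor cells and 253 CPM in the Malat1-rich, at least 85.7-fold lower against a floor of 3 UMIs over the group. Spp1 was at 127 against 1073 CPM.

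A few transcripts ran the other way in their summed level. Summed Saa3 was 8595 CPM in Malat1-poor and 4687 CPM in Malat1-rich Saa3-positive cells, but the median cell had 36.9 and 36.3 Saa3 UMIs per 10000, and among all Saa3-positive cells 5 held 27.0% of Saa3 and 52.1% of Lcn2. Lcn2 was at 311 CPM in Malat1-poor and 87.0 CPM in Malat1-rich Saa3-positive cells, Fth1 at 22700 against 12862 CPM and Tmsb4x, the actin-binding thymosin beta-4, at 34772 against 22232 CPM. Stmn1, a microtubule regulator, and Ccl6, a monocyte chemokine, had log2 ratios of 1.26 and 1.13. C1qa was close in both, at 5551 against 5635 CPM.

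The comparison with homeostatic microglia was also made within each Malat1 range. Among Malat1-poor cells (98 Saa3-positive against 278 homeostatic), 47 of 3822 genes were at least 2-fold higher (1.23%) and 77 lower (2.01%), with a median of -0.08. Among Malat1-rich cells (86 against 2303), 226 of 10153 were higher (2.23%) and 969 lower (9.54%), with a median of -0.22. Of the 30 genes named over homeostatic microglia, 14 were measured in both. Lcn2 had log2 ratios of 2.72 and 1.41 in Malat1-poor and Malat1-rich cells, and Marco 2.77 and 1.82. Selplg had -1.63 and -2.10, and Sparc -1.36 and -1.88. Spp1 differed between them, at 0.62 and 3.12, as did Ccl7 at 1.13 and 2.45. The acute-phase median without Saa3 was 2.31 (3 genes) and 1.02 (6 genes), and that of other homeostatic genes -0.80 and -1.01. The part of nuclear RNA content in the low homeostatic sum was not tested.

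**Figure D5:**
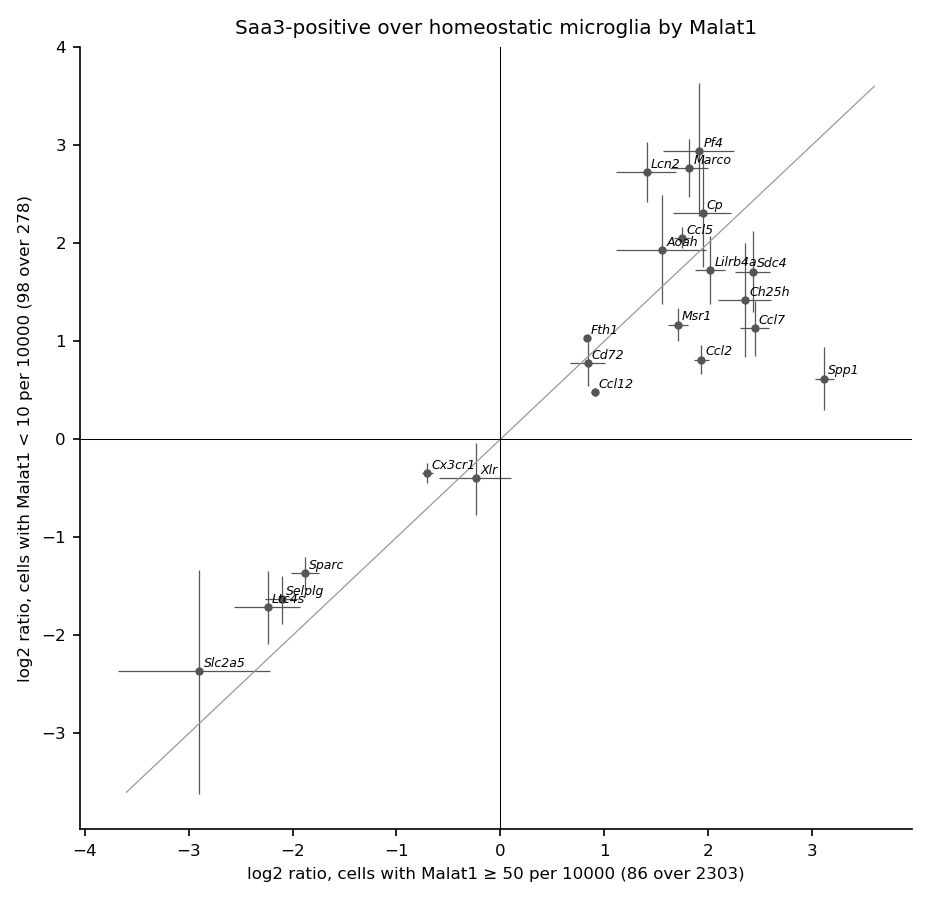
Log2 ratio of CPM in Saa3-positive over homeostatic microglia for 22 genes, among Malat1-rich cells (x axis, 86 over 2303 cells) and Malat1-poor cells (y axis, 98 over 278 cells); bars are 95% counting intervals and the diagonal marks equal ratios. All 22 genes have the same sign in both, Lcn2, Marco and Pf4 lie above the diagonal, and Spp1, Ccl7 and Ccl2 lie below it. Of these genes, 14 were named for their ratios in the comparison of all these cells, so equal signs were favoured by the choice.

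Compared with Saa3-low cells within the same Malat1 range, Lcn2 had log2 ratios of 2.42 among Malat1-poor and 0.89 among Malat1-rich cells, and Marco 1.84 and 0.51. Ccl5 had 1.16 and 0.34, whereas Spp1 had -0.74 and 0.98. Lcn2, Marco and Ccl5 had their larger ratios in the Malat1-poor cells, and Spp1 changed sign between the ranges. In the Malat1-poor comparison 18 of 3644 genes were at least 2-fold higher (0.494%) and 11 lower (0.302%). In the Malat1-rich comparison 7 of 6182 were higher (0.113%) and 48 lower (0.776%).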

How the data were processed

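The 2 mouse brain libraries, made with 10x Genomics 3′ version 3 chemistry after enzymatic digestion at 37 °C per the labels' protocols, were read as barcode by gene matrices. The deposited values are UMI counts per gene and barcode. Cell Ranger 6.1.2 and build mm10 come from the submitters' processing notes. How cells were separated by CD45, how many mice were used and which annotation release was counted: not given in the sources used here. The members and all gene lists were chosen with earlier results of these data known.

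UMIs were summed over the cells of a group and expressed as CPM, and log2 ratios were taken between groups. Poisson and Clopper-Pearson intervals were exact at 95%. A gene was measured in a comparison if it had at least 100 UMIs in both groups together. It was counted as higher or lower at 2-fold. With 1 library a group, no test was made. Named genes were the 15 per direction in the comparison with homeostatic microglia and 10 in the others, ranked by the bound of the counting interval nearest to no difference, without the genes of the rule, and members of the lists were also named as examples. Lists numbered 45. The procedure was tested on simulated data. List genes whose symbol stands for several IDs were left out.

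Scrublet marked 177 barcodes (2.04%, against 6.93% set as the rate to be found), and these were kept except in one alternative. The libraries share 27 barcodes, of which 0 belong to the Saa3-positive cells. Alternatives were other thresholds of the rule, thinning to 1000 UMIs, equal weight per cell, TMM scaling and other gene minimums. The Malat1 ranges and the removal of cells with markers of other lineages were chosen after seeing the data. Python 3.11.15 was used with numpy 2.4.6, scipy 1.17.1, pandas 2.3.3, scanpy 1.11.5 and matplotlib 3.10.9.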

Additional observations from a re-analysis of the deposited data

Results flagged for a closer look

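The same rule was met by 5 of 12881 kept barcodes in the CD45-negative library (0.0388%, 95% Clopper-Pearson interval 0.0126 to 0.0906%), which the comparisons do not use. These 5 cells had 1188 to 16440 UMIs, median 6594, and 4 to 55 Saa3 UMIs. Summed, they held 2918 CPM of Saa3 and 6884 CPM of Ccl12, and 224 CPM of Ptprc, which encodes CD45. How they entered that library was not tested.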

How the results depend on the processing

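With 1 library a group, none of these values has a replicate behind it, and depth limits genes with few UMIs. No paired analysis was possible because each group came from the same single library. The number of Saa3-positive cells, 196, became 127 with a homeostatic sum below 10. Over homeostatic microglia, 1707 genes were past 2-fold. This became 1072 after thinning to 1000 UMIs, 2707 with equal weight per cell, 1058 under TMM (232 higher, 826 lower, against 114 and 1593), 820 with at least 500 UMIs per gene and 124 among Malat1-poor cells. Over Saa3-low cells, 58 genes were past 2-fold. This became 102 with a UMI minimum of 500, 38 with Saa3 at least 2 UMIs, 100 with Saa3 at least 5 per 10000, 227 with C1q at least 25, 20 with C1q at least 100 and 505 with equal weight per cell. It was 493 with at least 20 UMIs per gene, 5 with at least 500, 29 among Malat1-poor cells and 116 without cells carrying other markers. Over Tnf-high cells, 878 (43 higher, 835 lower) became 102 after thinning, 501 under TMM (110 and 391), 1754 with at least 20 UMIs per gene, 300.0 with at least 500, 458 among Malat1-rich cells and 462 without cells carrying other markers. The comparison with Tnf-high cells was not run among Malat1-poor cells, since 12 Tnf-high cells were in that range. Among named genes at least 2-fold apart, the sign of the log2 ratio turned in 7 cases. F13a1 over homeostatic microglia was -0.23 without cells carrying other markers, which were removed on F13a1 among other genes. Over Saa3-low cells, Rsad2 was -0.13 with Saa3 at least 5 per 10000, Cxcl10 0.16 with a homeostatic sum below 20 and Igfbp4 -0.50 after thinning, while Il1b was 0.61 and Runx3 1.36 among Malat1-poor cells. Over Tnf-high cells, Tmem44 was 0.71 after thinning. Among named genes under 2-fold over Saa3-low cells, the sign also turned for Spp1 (-0.74 among Malat1-poor cells), Gadd45g (-0.69 there, -0.12 with a homeostatic sum below 10), Adamts1 (-0.07 after thinning, -0.19 with equal weight per cell) and Ms4a4b (0.19 with C1q at least 100), and for Spp1, Adamts1 and Gadd45g without cells carrying other markers. The cause was not tested in any of these. Of the other named-gene values under an alternative, 541, 376 and 357 stayed within their counting interval and 184, 125 and 125 moved beyond it, over homeostatic, Saa3-low and Tnf-high cells in that order. Under the other settings the totals stayed within 1.5 times. The number higher did not always do so. Against 114 over homeostatic microglia, it was 245 with at least 20 UMIs per gene and 174 with a homeostatic sum below 10. Among Malat1-rich cells of these groups it was 226. Over Saa3-low cells it was 16 with a sum below 20 and 5 after thinning, against 9. Over Tnf-high cells, 43 became 68 with a sum below 10, 28 with a sum below 20 and 77 with equal weight per cell.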
